A study of Homo sapiens with 21 samples.

Results

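The immediate early transcription factor genes FOS, FOSB, FOSL1, FOSL2, JUN, JUNB, JUND, EGR1, MYC and IER2 were followed in HepG2 cells over a range of caffeine doses. They were chosen by symbol, as the FOS and JUN subunits of AP-1 together with EGR1, MYC and IER2, and each symbol was matched to 1 Ensembl identifier. The 10 genes were found among 37637 features in the table, and all 10 were among the 17468 genes tested. At 1000 µM caffeine FOSL2 and MYC were higher than at 0 µM and JUND was lower, at 100 µM FOS was lower, and at 0.01 to 10 µM no member passed the test.

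Immediate early genes are transcribed within minutes of a growth factor, stress or calcium signal, without new protein synthesis, because the factors that act on their promoters (the serum response factor with its ELK partners, and CREB) are already present and are switched on by kinases. FOS and JUN proteins pair through leucine zippers to form AP-1, which binds the TPA response element and, with ATF partners, the cAMP response element. Their messages are short-lived, so that steady levels in resting hepatocytes are low, while MYC and JUND are often expressed continuously in liver cancer lines.

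HepG2 is an established human liver cancer cell line. Caffeine, a methylxanthine that blocks adenosine receptors and at high concentration inhibits phosphodiesterases, was given at 0, 0.01, 0.1, 1, 10, 100 or 1000 µM for 6 h, with 3 libraries per dose and 21 in all, which the series calls biological replicates. All 7 groups, controls included, were rinsed and moved from serum-containing to fresh serum-free medium when caffeine was added, and all were harvested with trypsin and pelleted before RNA extraction. The effect of that handling on these handling-sensitive genes was not tested, times before 6 h were not analysed here, and all values come from 1 cell line. The series' overall text gives a compound other than caffeine for its controls, and the labels of the samples, which give caffeine at 0 µM, were used.

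RNA was selected by its poly(A) tail and sequenced, with 28043623 to 40827833 counted reads in a library. Members had between 245 reads (JUNB) and 13271 reads (MYC) in a library. The 10 hepatocyte markers were all present, with a summed level of 26020 to 31330 CPM (the usual normalised read count, scaled to the library total by the TMM method). Of the markers of other cell types, COL1A2 had 0 counts in every library, COL3A1, PDGFRA, DCN, LUM, PTPRC and CD3E had at most 1, and PDGFRB and the lysozyme gene LYZ were expressed. Libraries also differed in the level of genes by base composition. Each library was given the median log2 deviation, from a gene's mean over all libraries, of the 1568 genes with the most GC in their exons (at least 61.8%), minus that of the 1570 with the least (at most 38.7%), with the members left out. This difference lay between 0.191 and 0.468 in the controls but between -0.735 and -0.0168 at 1000 µM, so those groups did not overlap on it. The lowest value of all, -0.835, belonged to 0.01 µM replicate 1, and 1 µM replicate 3 had the largest share of mitochondrially encoded reads (14.2%, against 4.95% to 11.7% in the others). The first of these gave the lowest level of 5 members (JUN, JUNB, JUND, MYC and IER2) and the second the highest level of 5 (FOSL1, JUNB, JUND, EGR1 and IER2).

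The promoters of FOS, FOSL2 and JUND are shown because these members passed a test and have an entry in the RefSeq table. That of EGR1 is shown because it holds the serum response motif within the stretch searched. MYC also passed a test, but its promoter was not searched and is not shown. Each is given 5′ to 3′ along the gene's own strand, from 250 bases before the RefSeq start to 20 after it (build GRCh38.p14), with motif matches in capitals.
FOS promoter, chr14:75278578-75278847, plus strand: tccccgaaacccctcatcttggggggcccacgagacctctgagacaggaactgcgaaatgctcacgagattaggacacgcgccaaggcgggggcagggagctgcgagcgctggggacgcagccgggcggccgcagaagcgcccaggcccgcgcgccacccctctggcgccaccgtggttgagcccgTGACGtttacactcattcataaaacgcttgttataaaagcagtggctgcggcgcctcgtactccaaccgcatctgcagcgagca
FOSL2 promoter, chr2:28392608-28392877, plus strand: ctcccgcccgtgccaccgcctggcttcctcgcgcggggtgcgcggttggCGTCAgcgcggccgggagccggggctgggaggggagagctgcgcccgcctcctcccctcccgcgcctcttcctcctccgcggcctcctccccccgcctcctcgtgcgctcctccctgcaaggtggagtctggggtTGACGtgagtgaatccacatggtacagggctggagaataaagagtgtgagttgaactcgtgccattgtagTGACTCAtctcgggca
JUND promoter, chr19:18281603-18281872, minus strand: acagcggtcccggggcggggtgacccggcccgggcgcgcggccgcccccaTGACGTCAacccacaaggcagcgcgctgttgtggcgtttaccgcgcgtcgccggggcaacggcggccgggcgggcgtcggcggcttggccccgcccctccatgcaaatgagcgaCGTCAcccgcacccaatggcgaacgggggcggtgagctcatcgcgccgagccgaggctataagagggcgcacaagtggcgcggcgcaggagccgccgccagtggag
EGR1 promoter, chr5:138465229-138465498, plus strand: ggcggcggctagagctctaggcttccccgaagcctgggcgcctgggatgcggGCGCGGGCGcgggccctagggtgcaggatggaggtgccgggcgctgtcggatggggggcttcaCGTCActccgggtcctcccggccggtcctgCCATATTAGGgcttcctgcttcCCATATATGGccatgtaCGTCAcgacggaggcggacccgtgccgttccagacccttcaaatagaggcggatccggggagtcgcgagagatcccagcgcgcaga

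Motifs were searched on both strands over the 250 bases before and 50 after the start. Sequence farther upstream was not searched, so a member without a match here may hold the motif outside this stretch. The promoter of MYC was left out of the search and FOSL1 had no entry, which left 8 members. The short form TGACG of the cAMP response element was present in 8 of these 8, against 24.6% of 35116 promoters in the same table. In FOS it lay from -64 to -60, counted from the start, and in FOSB from -60 to -56. JUND held the whole element TGACGTCA from -200 to -193, which 1.85% of promoters held and which overlaps a TGACG on each strand. EGR1 held 2 CArG boxes, the binding motif of the serum response factor, from -105 to -96 and from -83 to -74, a motif present in 1.29% of promoters. It also held a match to the EGR motif GCGNGGGCG from -198 to -190 (9.43% of promoters), and FOSL2 held a match to the AP-1 motif TGANTCA just after its start, from 4 to 10 (7.71%). The E-box CACGTG was found in 0 of the 8 (7.26% of promoters). A match is a stretch of letters, and binding was not measured.

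By the GENCODE v29 annotation of GRCh38, FOS lies at chr14:75278774-75282230 on the plus strand, FOSB at chr19:45467995-45475179 (plus), FOSL1 at chr11:65892049-65900573 (minus), FOSL2 at chr2:28392448-28417312 (plus), JUN at chr1:58780788-58784327 (minus), JUNB at chr19:12791496-12793315 (plus), JUND at chr19:18279760-18281622 (minus), EGR1 at chr5:138465490-138469315 (plus), MYC at chr8:127735434-127741434 (plus) and IER2 at chr19:13150415-13154908 (plus). These starts are not always the RefSeq starts used for the promoters. The FOSL2 promoter stretch shown above lies wholly inside the GENCODE gene, and FOS starts earlier in GENCODE than in RefSeq. JUN, JUNB and JUND each consist of 1 exon block. GC content of the exons ran from 52.6% in FOS and 53.3% in FOSL2, through 53.9% in MYC, to 64.9% in JUNB and 69.7% in JUND. The exons of JUNB share 259 bases (14.2%) with HOOK2 on the opposite strand and those of IER2 share 946 bases (30.8%) with the antisense gene AC011446.2. Whether the counting used strand is not given in the sources used here, so the levels of JUNB and IER2 are uncertain to that extent.

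Levels of different genes were compared per kilobase of exon. The length was that of the joined exons of all annotated transcripts of a gene, which can exceed the length of its message. The order of genes depends on that choice. At 0 µM MYC stood highest with 70.4 ± 4.61 CPM per kb (SD, n = 3), followed by JUND with 61.3 ± 8.21 CPM per kb, and these overlapped within 1 SD. IER2 followed with 26.0 ± 2.34 and JUN with 18.1 ± 0.797 CPM per kb. EGR1 (14.5 ± 2.13), FOS (14.1 ± 1.43) and JUNB (13.5 ± 1.04 CPM per kb) did not differ beyond their spread. FOSL1 stood at 8.54 ± 0.522, FOSB at 2.50 ± 0.174 and FOSL2 at 2.09 ± 0.164 CPM per kb. At 1000 µM MYC reached 110.4 ± 17.6 CPM per kb, while JUND at 28.1 ± 4.52 and IER2 at 23.1 ± 3.63 CPM per kb overlapped within 1 SD, and FOSL2 at 2.75 ± 0.132 overlapped with FOSB at 2.28 ± 0.679 CPM per kb.

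**Figure D1:**
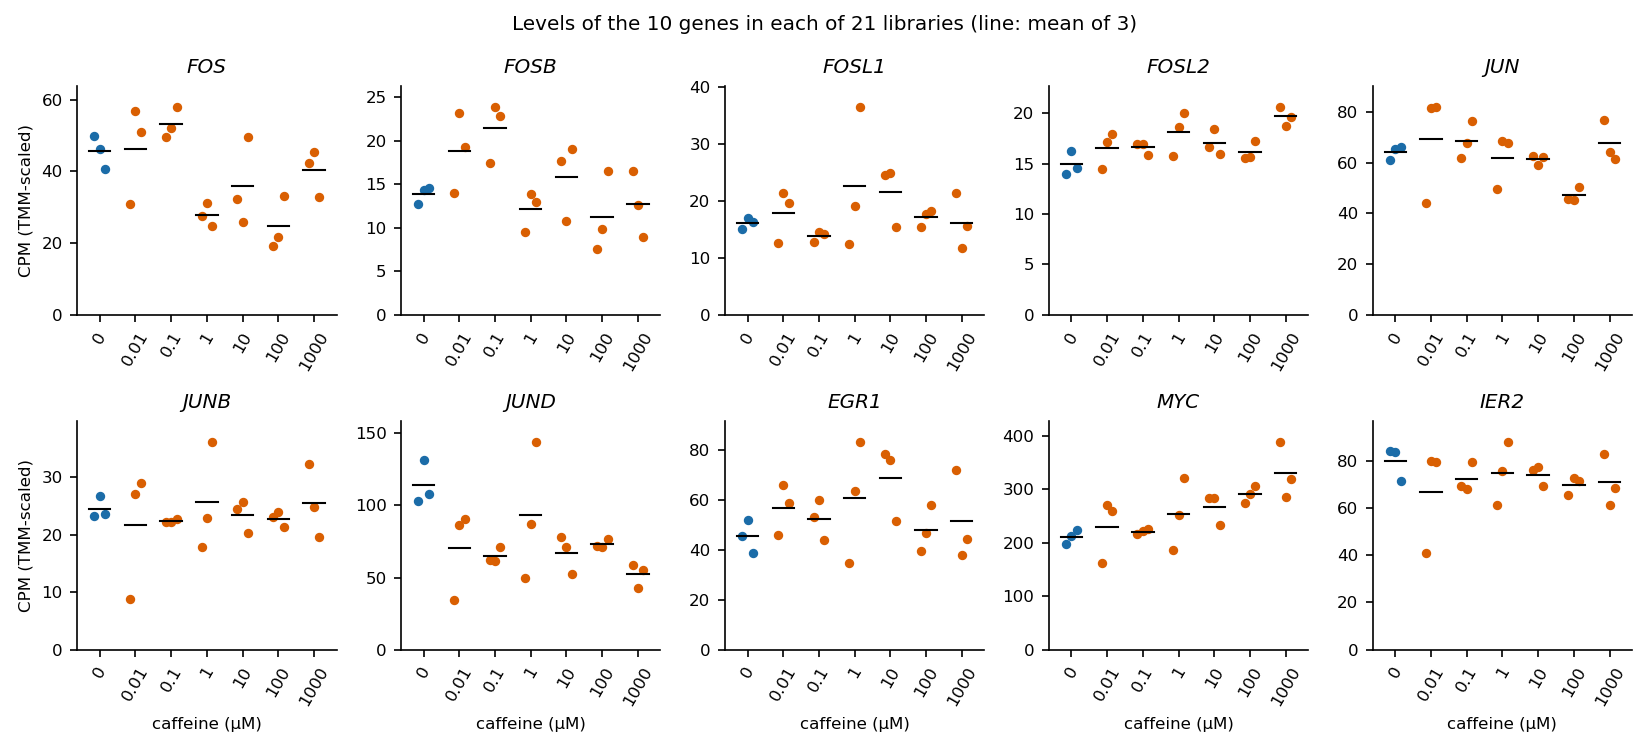
Level of each of the 10 genes in CPM (y axis, starting at 0) at each caffeine dose in µM (x axis), with 1 point per library, controls in blue, caffeine in orange and the mean of 3 as a line. JUND lay below all 3 controls in 17 of 18 caffeine libraries and MYC above them in 14, with all 18 set against the same 3 controls. For neither count was the share of all genes computed. The IER2 points overlapped the controls at every dose.

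Each dose was compared with 0 µM to ask which members responded at that dose, in 1 edgeR quasi-likelihood fit over the 21 libraries with Benjamini-Hochberg adjustment over all genes tested and a threshold of 0.05. All 6 comparisons share the same 3 control libraries, so they are not independent of one another. At 1000 µM 3 of 10 members passed, FOSL2 and MYC higher and JUND lower, where 41.2% of all genes passed (20.6% higher and 20.6% lower), and the median log2 fold change was 0.03 for the members and -0.03 for all genes. The members thus did not pass more often than genes at large at that dose. At 100 µM 1 member, FOS, passed and was lower, where 6.02% of genes passed and 3.27% passed as lower. No member passed at 0.01 µM (4.95% of genes passed), 0.1 µM (0%), 1 µM (0%) or 10 µM (22.0%). At those doses 1, 2, 2 and 2 members had an unadjusted p under 0.05, against 26.1%, 15.2%, 22.8% and 35.9% of all genes. DESeq2 called FOS at 1 µM (8.08% of genes) and 0 members at 0.01 µM (12.5% of genes), 0.1 µM (2.93%) and 10 µM (25.1%).

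**Figure D2:**
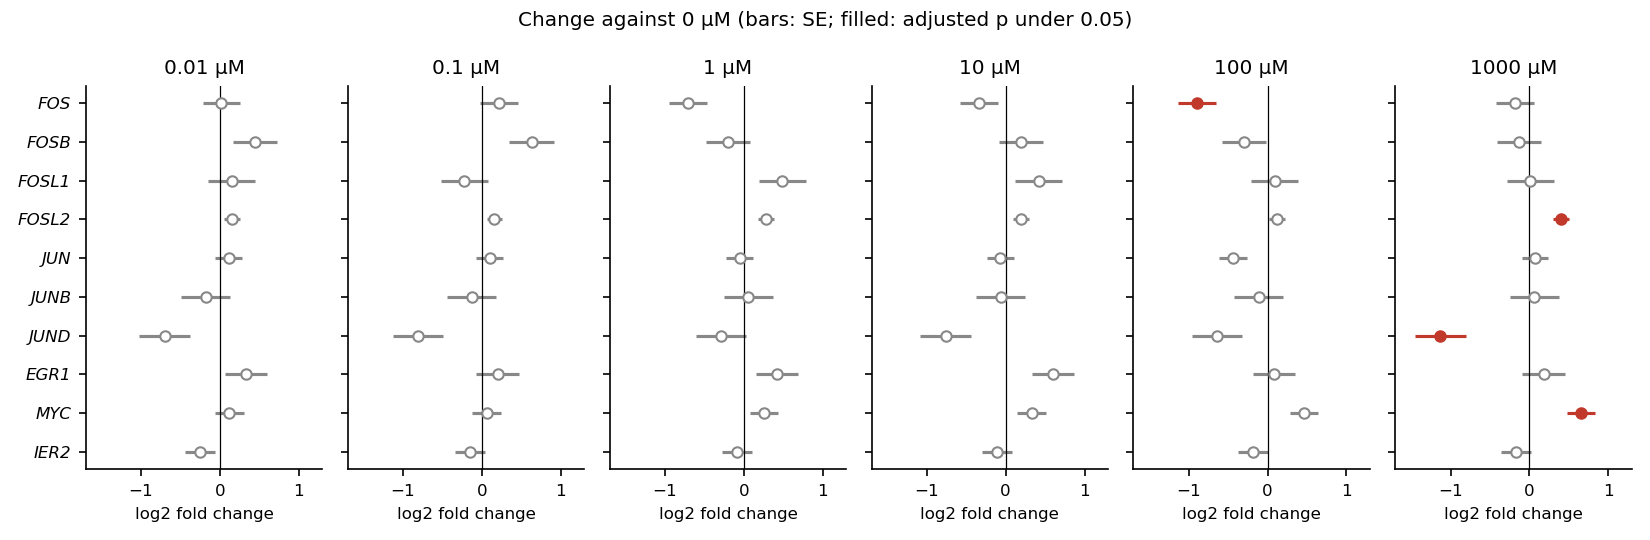
Log2 fold change against 0 µM (x axis) of each gene (y axis) at each of 6 caffeine doses, with SE bars from the edgeR fit and filled red points where the adjusted p is under 0.05. Filled points are FOS at 100 µM (-0.89) and FOSL2 (0.40), JUND (-1.13) and MYC (0.65) at 1000 µM.

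Complete separation of a dose's 3 libraries from the 3 controls, on either side, was counted as well. It held for 1 member at 0.01 µM (32.0% of genes) and 4 members at 0.1 µM (22.5% of genes). The dose of 1 µM separated 1 member (23.6% of genes) and 10 µM separated 2 (45.8% of genes). With 100 µM there were 4 (43.0% of genes), and with 1000 µM there were 3 (53.2% of genes). JUND was below in 5 of these 6 doses. MYC was above at 10, 100 and 1000 µM, and FOS was below at 1 and 100 µM. At 0.1 µM FOSB was above while FOSL1 and JUNB were below, at 100 µM JUN was below, and at 1000 µM FOSL2 was above.

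Comparisons among caffeine doses give the control libraries no weight, though those libraries remain in the fit and in its estimate of the spread. Against the mean of the 4 doses from 0.01 to 10 µM, 1 member passed at 1000 µM, MYC (30.7% of genes passed, 16.3% as higher). Against the same mean no member passed at 100 µM (0.447% of genes), and the lowest member values of the edgeR fit were those of FOS (-0.69 ± 0.20, log2 with SE, adjusted p = 0.207), FOSB (-0.56 ± 0.23, adjusted p = 0.436) and JUN (-0.46 ± 0.14, adjusted p = 0.248). These 3 members had an unadjusted p under 0.05 (9.38% of genes), and DESeq2 called FOS (1.1% of genes). Between 1000 and 100 µM no member passed (14.7% of genes), with 3 members under an unadjusted p of 0.05 (29.5% of genes) and 3 called by DESeq2 (FOS, FOSL2 and JUN, where it called 18.3% of genes). The mean of the 4 lower doses against 0 µM called no member by edgeR either (18.2% of genes), with 2 under an unadjusted p of 0.05 (33.4% of genes) and JUND called by DESeq2 (21.3% of genes). Among the 7 groups FOS alone passed (adjusted p = 0.0136 in edgeR's quasi-likelihood test), where 28.1% of genes did. DESeq2 called 5 members there, FOS, FOSB, FOSL2, JUND and MYC (37.7% of genes), and without the 3 libraries at 1000 µM edgeR called 0 (0.918% of genes). Single libraries moved the edgeR count. It was 6 without 0.01 µM replicate 1 (FOS, FOSB, FOSL2, JUN, JUND and MYC, with 35.0% of genes). Without 1 µM replicate 1 it was 4 (34.7% of genes). It was 2 without replicate 2 of 0.01 µM, replicate 3 of 1 µM or of 100 µM, or replicate 1 of 1000 µM (25.5% to 31.0% of genes). Along the dose step, the rank of the dose from 0 to 6, MYC and FOSL2 rose, where 29.1% of genes passed in either direction and 14.5% as higher.

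Among the FOS subunits, FOS, the one with the strongest activating domain and the classical serum-induced member, had its lowest levels at 1 and 100 µM. FOS stood at 49.8, 46.1 and 40.6 CPM in the 3 control libraries, against 30.8, 56.8 and 50.9 CPM in those given 0.01 µM. The libraries at 0.1 µM had 49.6, 52.0 and 58.0 CPM, whereas those at 1 µM had 27.6, 31.2 and 24.6 CPM. At 10 µM the values were 32.3, 25.8 and 49.6 CPM. They were 19.2, 21.6 and 33.1 CPM for 100 µM caffeine, then 42.5, 45.3 and 33.0 CPM for the highest dose. All 3 libraries at 1 µM and all 3 at 100 µM lay below every control, while those at 0.01, 0.1, 10 and 1000 µM overlapped the controls. The fold change against 0 µM was -0.89 ± 0.24 on the log2 scale at 100 µM (0.54-fold, adjusted p = 0.0405 by edgeR's quasi-likelihood test) and FOS fell there. At 1 µM it was -0.71 ± 0.24 (adjusted p = 0.107), at 1000 µM -0.18 ± 0.24 (adjusted p = 0.579), and from 100 to 1000 µM it was 0.71 ± 0.24 (adjusted p = 0.0555). The call at 100 µM was lost in 5 of 6 fits that left out 1 library of the comparison (log2 values from -1.16 to -0.73, adjusted p up to 0.147). It was also lost with library totals in place of TMM (-0.87, adjusted p = 0.0547), and it stood in 9 of 16 alternatives.

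FOSB, the FOS paralogue with a truncated inhibitory splice form, followed FOS in part. Its control libraries had 12.8, 14.3 and 14.6 CPM, and its highest group was 0.1 µM with 17.5, 23.9 and 22.9 CPM, all above the controls. Its lowest was 100 µM with 7.51, 9.83 and 16.5 CPM, which overlapped the controls. The change at 0.1 µM was 0.63 ± 0.28 (log2, adjusted p = 0.291), and no dose passed. FOSL1, which encodes FRA1 and is often high in invasive cells, had 15.0, 17.0 and 16.3 CPM in the controls. At 1 µM it spread from 12.4 to 36.6 CPM, the highest value coming from replicate 3, and at 0.1 µM all 3 libraries (12.8, 14.6 and 14.1 CPM) were below the controls. Its changes lay between -0.22 ± 0.30 at 0.1 µM and 0.49 ± 0.30 at 1 µM, and none passed.

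FOSL2, which encodes FRA2, was the steadiest of the FOS genes and rose at the highest dose. The controls had 13.9, 16.2 and 14.6 CPM, against 14.5, 17.2 and 17.9 CPM in the libraries given 0.01 µM. Those at 0.1 µM had 17.0, 17.0 and 15.9 CPM, whereas those at 1 µM had 15.8, 18.6 and 20.1 CPM. At 10 µM the values were 16.6, 18.4 and 15.9 CPM. They were 15.6, 15.7 and 17.3 CPM for 100 µM caffeine, then 20.6, 18.8 and 19.6 CPM for the highest dose. The 3 libraries at 1000 µM were above every control, and the other doses overlapped the controls. The highest library exceeded the lowest by 1.48-fold over all 21, against 3.03-fold for FOS. At 1000 µM FOSL2 rose by 0.40 ± 0.10 (log2, 1.32-fold, adjusted p = 0.00541 by edgeR), and this call stood in all 16 alternatives, with values from 0.35 to 0.48. Against the mean of 0.01 to 10 µM the change was 0.21 ± 0.08 (adjusted p = 0.0611). Its slope of 0.04 ± 0.02 per dose step passed (adjusted p = 0.0454 by edgeR) but stood in only 17 of 33 alternatives. It was lost in 10 of 21 fits without 1 library, with library totals, with no filter, with the mitochondrial covariate, without the 2 libraries lowest in GC-rich genes (0.03, adjusted p = 0.125), in the 18 treated libraries alone (0.03, adjusted p = 0.331) and without the 3 libraries at 1000 µM (0.02, adjusted p = 0.457).

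Among the JUN subunits, JUN, the strongest activator and the usual partner of FOS, was lowest at 100 µM. Its controls had 61.0, 65.5 and 66.1 CPM. The libraries given 100 µM had 45.8, 45.4 and 50.5 CPM, all below the controls, while the highest dose gave 76.8, 64.3 and 61.6 CPM, which overlapped them. Among the libraries at 0.01 µM, replicate 1 had 44.2 CPM and the other two 81.6 and 82.0 CPM. The change at 100 µM was -0.44 ± 0.18 (log2, adjusted p = 0.124 by edgeR) and that from 100 to 1000 µM was 0.52 ± 0.18 (adjusted p = 0.0548). The former passed in the 6 libraries fitted alone (-0.45, adjusted p = 0.00885) and without the 2 libraries lowest in GC-rich genes (-0.44, adjusted p = 0.0229), and the latter in 6 of 15 alternatives. JUNB, which can restrain JUN, stood at 23.3, 26.7 and 23.6 CPM at 0 µM. No dose passed, with log2 fold changes from -0.18 ± 0.31 at 0.01 µM to 0.06 ± 0.31 at 1 µM and 1000 µM. With the trend over GC content removed in each library, a correction chosen after seeing the data, JUNB stood at 0.49 ± 0.20 at 1000 µM against 0 µM (adjusted p = 0.0584 by edgeR) and passed as higher against the mean of 0.01 to 10 µM (0.42 ± 0.15, adjusted p = 0.0461). Its extremes were 8.75 CPM in 0.01 µM replicate 1 and 36.2 CPM in 1 µM replicate 3, and the others lay between 17.8 and 32.3 CPM.

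JUND is the subunit that is expressed without stimulation and often slows proliferation. It lay below the controls in nearly every caffeine library but passed against 0 µM only at 1000 µM by edgeR. Its controls had 102.8, 131.5 and 108.1 CPM. With 0.01 µM caffeine it stood at 34.2, 86.3 and 90.6 CPM, with 0.1 µM at 62.2, 61.8 and 70.9 CPM and with 1 µM at 49.4, 87.4 and 144.3 CPM. The libraries at 10 µM had 78.1, 71.1 and 52.5 CPM. Those at 100 µM had 71.6, 71.2 and 76.6 CPM, whereas the highest dose gave 58.9, 42.8 and 55.1 CPM. Of 18 caffeine libraries 17 lay below every control, and the exception, 1 µM replicate 3, lay above them. All 18 were set against the same 3 controls, and the share of all genes with such a count was not computed. On the level of GC-rich minus GC-poor genes that exception had 0.468, as did control replicate 2. At 1000 µM JUND fell by 1.13 ± 0.32 on the log2 scale (0.458-fold, adjusted p = 0.00923 by edgeR), and this call stood in all 16 alternatives. At the other doses the change was -0.70, -0.81, -0.29, -0.76 and -0.64 from 0.01 to 100 µM, each with an SE of 0.32, and none passed (adjusted p from 0.0915 to 0.622). The change from the mean of 0.01 to 10 µM to 1000 µM was -0.49 ± 0.26 (adjusted p = 0.167).

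JUND has the highest GC content of the 10 genes, and the level of GC-rich genes moved with the groups as given above. With the trend over GC content removed in each library, the change at 1000 µM was -0.62 ± 0.21 (adjusted p = 0.0260 by edgeR). The correction was chosen after seeing the data, and the other 15 alternatives lay between -1.27 and -0.98. Without 0.01 µM replicate 1 and 1000 µM replicate 3, the 2 libraries lowest in GC-rich genes, it was -1.17 and passed. Single libraries weighed on the lower doses: the change at 0.01 µM was -0.37 without replicate 1, and that at 1 µM was -0.73 without replicate 3.

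JUND also made up less of the JUN family's message at the highest dose. It accounted for 65.8 ± 1.90% (SD, n = 3) of the summed JUN, JUNB and JUND level per kb at 0 µM, between 52.4% (0.1 µM) and 60.3% (100 µM) at the doses between, and 45.9 ± 4.79% at 1000 µM. JUN went from 19.6 ± 1.58% to 31.3 ± 1.67% and JUNB from 14.5 ± 0.440% to 22.8 ± 3.63% between 0 and 1000 µM. In the FOS family FOS made up 51.7 ± 3.69% in the controls and 47.9 ± 6.87% at the highest dose, but 35.8 ± 10.9% with 1 µM and 35.8 ± 4.08% with 100 µM caffeine, while FOSL1 went from 31.5 ± 2.32% at 0 µM to 43.9 ± 4.88% at 100 µM. The shares describe the libraries and were not tested, and they concern messages, not AP-1 protein. They rest on the same joined exon lengths, so the size of a gene's share depends on them. The shares were also not corrected for GC content. With the GC trend removed, JUND at 1000 µM against 0 µM changed by -0.62 in place of -1.13 on the log2 scale. JUN changed by 0.25 in place of 0.07 and JUNB by 0.49 in place of 0.06.

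**Figure D3:**
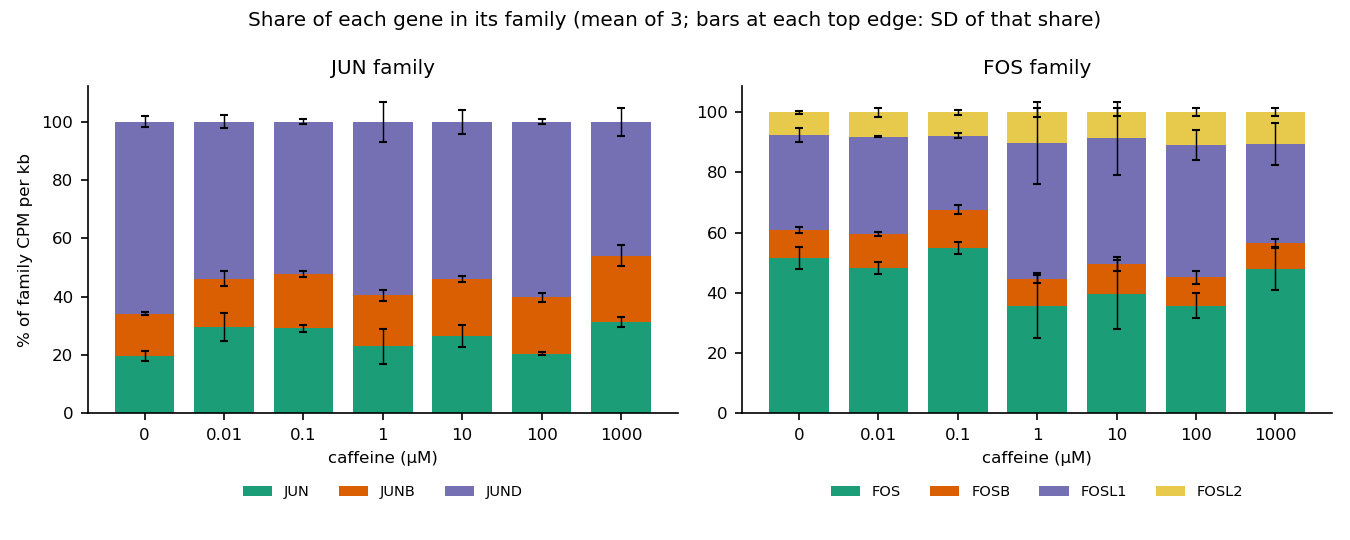
Share of each gene (stacked, in percent of the family's summed CPM per kb, y axis) in the JUN family and the FOS family at each caffeine dose in µM (x axis), as the mean of 3 libraries, with bars of 1 SD at the top edge of each segment. The JUND segment goes from 65.8% at 0 µM to 45.9% at 1000 µM, and the FOS segment is smallest at 1 and 100 µM.

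EGR1, a zinc finger factor known to be induced through serum response elements in its promoter, did not pass at any dose. Its controls had 45.5, 52.2 and 38.8 CPM. Its highest group was 10 µM with 78.5, 76.3 and 51.7 CPM, of which replicate 3 lay within the control range. The change there was 0.60 ± 0.27 (log2, 1.51-fold, adjusted p = 0.126 by edgeR), and it passed only when the 6 libraries were fitted alone (0.60, adjusted p = 0.0239). At 1000 µM EGR1 was 72.3, 38.2 and 44.5 CPM, in that order above, below and within the control range, and the change was 0.18 ± 0.27 (adjusted p = 0.622). IER2, a small nuclear protein gene of the immediate early class, was flat by comparison. Its controls had 84.4, 83.8 and 71.7 CPM, its group means at other doses lay between 67.0 and 75.1 CPM, and its changes ran from -0.25 ± 0.19 at 0.01 µM to -0.09 ± 0.19 at 1 µM. Its lowest library was again 0.01 µM replicate 1, at 41.1 CPM, and its highest 1 µM replicate 3, at 88.2 CPM.

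MYC, the growth-promoting factor that pairs with MAX, rose along the doses. The controls had 196.8, 212.4 and 224.4 CPM, against 161.2, 269.9 and 258.5 CPM in the libraries given 0.01 µM. Those at 0.1 µM had 215.4, 221.0 and 225.7 CPM, whereas those at 1 µM had 186.7, 252.4 and 321.0 CPM. At 10 µM the values were 283.0, 283.5 and 232.3 CPM. They were 274.9, 290.4 and 306.3 CPM for 100 µM caffeine, then 389.1, 285.4 and 319.0 CPM for the highest dose. Every library at 10, 100 and 1000 µM lay above every control, while the lower doses overlapped the controls. At 1000 µM MYC rose by 0.65 ± 0.18 (log2, 1.57-fold, adjusted p = 0.00853 by edgeR), and this call stood in all 16 alternatives with values from 0.54 to 0.77. The changes at 10 µM (0.33 ± 0.18, adjusted p = 0.197) and 100 µM (0.46 ± 0.18, adjusted p = 0.123) did not pass.

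The slope of MYC was 0.10 ± 0.02 per dose step (adjusted p = 0.00183 by edgeR) and passed in 32 of 33 alternatives, the exception being the fit without the 3 libraries at 1000 µM (0.09, adjusted p = 0.0579). Against the mean of 0.01 to 10 µM, a comparison that gives the controls no weight, MYC rose by 0.45 ± 0.14 at 1000 µM (1.37-fold, adjusted p = 0.0191 by edgeR). That call was lost without 1000 µM replicate 1 (0.34, adjusted p = 0.121) and without 1000 µM replicate 3 (0.48, adjusted p = 0.0586). The change from 100 to 1000 µM was 0.19 ± 0.18 (adjusted p = 0.525). With the trend over GC content removed, the change from 0 to 1000 µM was 0.76 ± 0.16 (adjusted p = 0.00116).

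Within doses, most members were high or low in the same libraries. After each dose's mean was taken out of log2 CPM, 44 of the 45 pairs of members had an r above 0 over the 21 libraries, with a median of 0.750. Of 65 relations in this family (the 45 pairs, and each member against the level of GC-rich genes and the mitochondrial share), 31 of the 45 pairs had an adjusted p under 0.05 by permutation within doses. The median r and the share of such pairs among other genes were not computed. Whether the members differ from genes at large in this is therefore not known. JUND and MYC, whose group means moved in opposite directions, went together within doses (r = 0.953, adjusted permutation p = 0.00552, rho = 0.860, adjusted permutation p = 0.00539, n = 21 libraries), and without the 2 libraries farthest from the median r was 0.900. FOS kept apart from most, with r = -0.044 against FOSL1 (adjusted permutation p = 0.874, rho = 0.0403, adjusted permutation p = 0.922) and r = 0.787 against FOSB (adjusted permutation p = 0.00956, rho = 0.695, adjusted permutation p = 0.0269), which stayed at 0.773 without the 2 farthest libraries.

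The level of GC-rich genes moved with the same libraries. Within doses its r was 0.945 with JUNB (adjusted permutation p = 0.00429, rho = 0.883, adjusted permutation p = 0.00416), 0.942 with IER2 (adjusted permutation p = 0.00552, rho = 0.908, adjusted permutation p = 0.00416) and 0.881 with MYC (adjusted permutation p = 0.00956, rho = 0.870, adjusted permutation p = 0.00617). With JUND it was 0.859 (adjusted permutation p = 0.00658, rho = 0.871, adjusted permutation p = 0.00487) and with FOS 0.395 (adjusted permutation p = 0.276, rho = 0.217, adjusted permutation p = 0.537). Without 0.01 µM replicate 1 and 1000 µM replicate 1, the 2 libraries farthest from the median of that measure, r was 0.920 for JUNB, 0.905 for IER2, 0.816 for MYC, 0.833 for JUND and 0.163 for FOS. With 3 libraries per dose no relation could be given within a single dose. What makes libraries of 1 dose differ in this way was not tested.

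**Figure D4:**
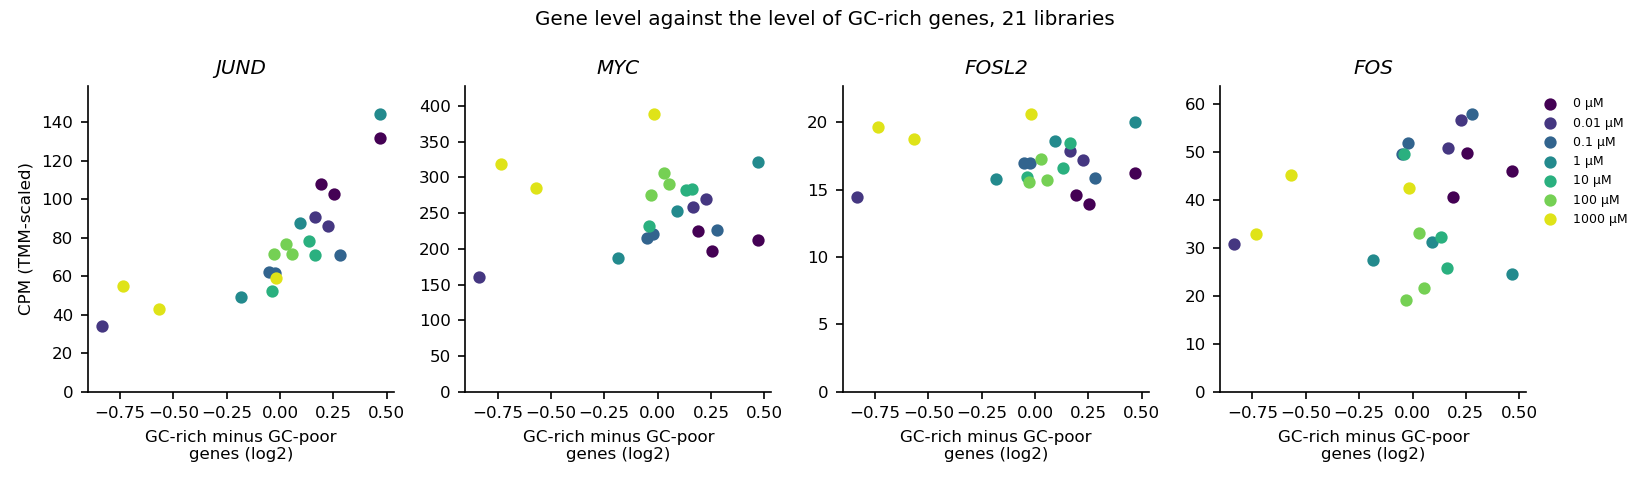
Level of JUND, MYC, FOSL2 and FOS in CPM (y axes, starting at 0) against the median log2 deviation of GC-rich minus that of GC-poor genes (x axis) in 21 libraries coloured by caffeine dose. JUND is low where GC-rich genes are low, while the MYC and FOSL2 points of 1000 µM are high at x values from -0.735 to -0.0168.

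FOS was the 1 member that passed among the 7 groups, and the genes whose log2 CPM followed it most closely over the 21 libraries were MIR23AHG (r = 0.850), DUSP1 (r = 0.836) and GPRIN1 (r = 0.774), out of 12434 genes compared. DUSP1, an immediate early phosphatase that switches off MAP kinases, had a mean of 31.7 CPM in the controls, fewer with 100 µM caffeine (24.5 CPM) and most with 1000 µM (40.4 CPM). MIR23AHG, the host transcript of a microRNA cluster, went from 2.23 to 1.05 and 1.94 CPM over the same doses. The likeness takes in differences between doses and between libraries of 1 dose alike, and it carries no test.

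Other genes of the pathways were read at 1000 µM against 0 µM from lists of known members, where 41.2% of all genes passed (20.6% higher and 20.6% lower) and the median log2 fold change of all genes was -0.03. Genes that MAP kinase signalling induces, most of them feedback genes that damp it, were mostly higher, with 11 of 17 tested higher and 1 lower (median 0.45). This list also held the transcription factor genes ETV1, ETV4 and ETV5. SPRY4, an inhibitor of receptor tyrosine kinase signalling, rose from 21.4 ± 1.82 to 85.0 ± 13.5 CPM (1.99 ± 0.15 on the log2 scale, adjusted p = 5.7e-08 by edgeR). ERRFI1, a feedback inhibitor of the EGF receptor, rose from 329.6 ± 12.5 to 1273 ± 74.9 CPM (1.95 ± 0.09, adjusted p = 4.8e-11), and DUSP4 (1.16) and SPRED1 (0.97) were also higher. The phosphatase gene DUSP8 was the member lower there (-0.64 ± 0.25, adjusted p = 0.0440), and that call stood in 7 of 16 alternatives and was lost with the GC trend removed (-0.24, adjusted p = 0.238).

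Of the other immediate early genes of the serum response and MAP kinase class, 8 of 20 tested were higher and 3 lower (median 0.42). KLF10, a repressor induced by TGF-beta, rose by 1.45 ± 0.17 (adjusted p = 7.3e-06 by edgeR), KLF4, a zinc finger factor of differentiation, by 1.17 ± 0.22 and the pseudokinase gene TRIB1 by 0.62 ± 0.10. ZFP36, whose product degrades AU-rich messages such as FOS, rose by 0.83 ± 0.24 (adjusted p = 0.0105) but did not pass without 1000 µM replicate 1. CCN1 fell by 0.63 ± 0.13 and CCN2 fell by 0.48 ± 0.07, both secreted matrix proteins and targets of SRF and YAP. EGR3, NR4A2 and NR4A3 had at most 8 counts in a library and were not tested. Of the kinases and factors upstream, 10 of 21 were higher and 2 lower (median 0.35). The SRF partners ELK1 (0.92), ELK3 (0.91) and MRTFB (0.85) were higher, HRAS (-0.60) and MAP2K2 (-0.60) were lower, and HRAS did not pass with the GC trend removed (-0.10, adjusted p = 0.337), nor MAP2K2 without 1000 µM replicate 2 or without 1000 µM replicate 3 (-0.35 with the GC trend removed).

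Partners of AP-1 were higher more often than lower, with 9 of 14 tested higher and 1 lower (median 0.57). MAFG, a small MAF protein, rose from 45.8 ± 2.04 to 105.0 ± 3.66 CPM (1.20 ± 0.07, adjusted p = 3.7e-09 by edgeR). JDP2, a JUN dimerization partner that represses AP-1, rose by 1.04 ± 0.19, and CREB1 (0.71) and ATF2 (0.70) were higher by less, with 0.38 each once the GC trend was removed. BATF2 was lower (-0.73). Of genes known as AP-1 targets 4 of 10 tested were higher and 1 lower (median 0.27). TGFBI, a secreted matrix protein, rose by 0.37 and CCND1, which encodes cyclin D1, by 0.33, and TIMP1, an inhibitor of matrix metalloproteinases, was lower (-0.54, and -0.37 with an adjusted p of 0.0887 with the GC trend removed) in a call that stood in 10 of 16 alternatives. The matrix metalloproteinase genes MMP1, MMP3, MMP9 and MMP10 had at most 9 counts in a library.

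Known targets of MYC in ribosome production, metabolism and the cell cycle were lower or did not pass. Of 26 tested 0 were higher and 12 lower (median -0.26). SRM, the spermidine synthase gene, fell by 0.89 ± 0.23 (from 318.7 ± 7.34 to 172.1 ± 52.7 CPM, adjusted p = 0.00528 by edgeR), CDK4 fell by 0.80 ± 0.15, RRP9, a ribosomal RNA processing factor, fell by 0.76 ± 0.15 and the telomerase gene TERT fell by 0.61 ± 0.17. With the GC trend removed, 9 were lower and 0 higher, with SRM at -0.53 and CDK4 at -0.71, and TERT did not pass (-0.13, adjusted p = 0.343), nor did it without 1000 µM replicate 2. In the MYC network 3 of 11 tested were higher and 1 lower (median 0.15). MGA (0.84), MXD1 (0.51) and MXI1 (0.50), which compete with MYC for MAX, were higher and MXD3 (-0.78) was lower. Of the EGR corepressors and targets 2 of 11 were higher (NAB2, 0.41, and VEGFA, 0.25) and PDGFB was lower (-0.27, and -0.02 with the GC trend removed), and the call of VEGFA stood in 12 of 16 alternatives and that of PDGFB in 10. Of 7 factors that bind AU-rich messages TIA1 was higher (0.52) and HNRNPD lower (-0.52). TIA1 did not pass without 1000 µM replicate 3 or with the GC trend removed (0.18, adjusted p = 0.0561).

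**Figure D5:**
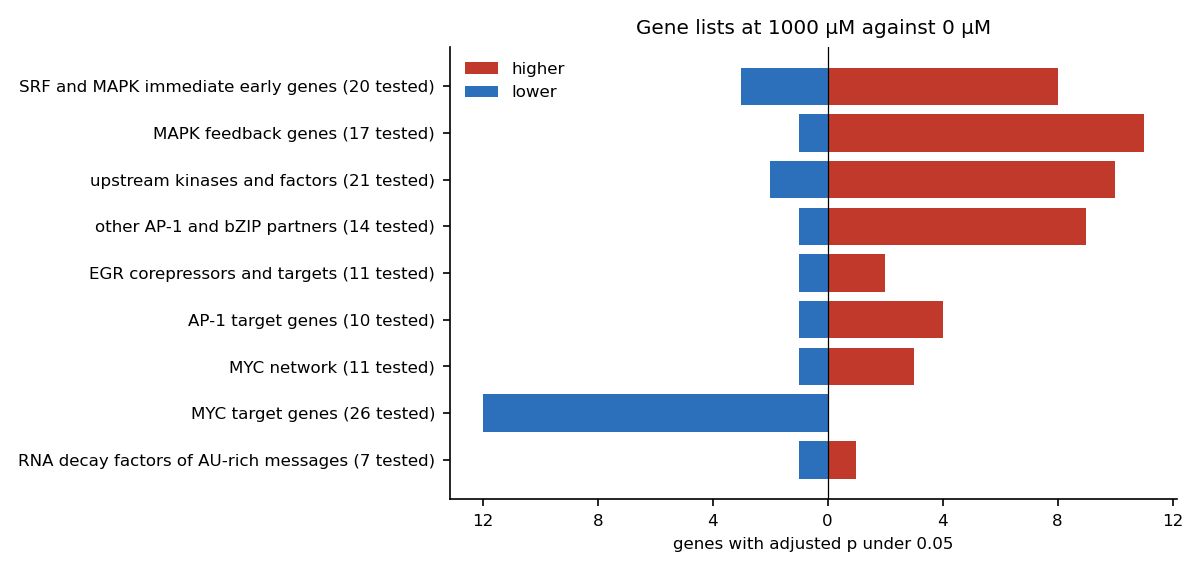
Number of genes of each list (y axis, with the number tested) past an adjusted p of 0.05 at 1000 µM against 0 µM (x axis), higher to the right in red and lower to the left in blue. MAPK feedback genes show 11 higher and 1 lower, and MYC target genes 0 higher and 12 lower.

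Hepatocyte markers moved at the same dose in both directions. APOA1 (-1.04), AFP (-0.69) and FGB (-0.33) were lower and APOB (0.56) was higher, though not without 0 µM replicate 1 or without 1000 µM replicate 3, while 6 of the 10 did not pass. PDGFRB went from 4.45 ± 0.308 to 8.58 ± 0.271 CPM (0.95 ± 0.09, adjusted p = 7.6e-07 by edgeR) with the other 6 fibroblast markers at 6 counts or fewer in every library. The part of these changes in the member values was not tested, and in RNA from whole cultures fewer cells expressing a gene and less RNA per cell cannot be told apart.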

How the data were processed

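The authors deposited a gene table of raw read counts, whole numbers without normalization. Per the submitters' processing notes HISAT2, DESeq2 and GRCh38 were used. The counting program, annotation and strand setting are not given in the sources used here. Of 42 columns of per-sample values, 21 matched these samples' labels, and the other 21 were not used. Symbols came from a gene name table (24852 features), and gene models from GENCODE v29, where 21893 of 32937 Ensembl identifiers (66.5%) matched in version and 32338 in any version.

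Counts were tested with edgeR 4.0.16 (R 4.3.3): TMM scaling, expression filter at a minimum count of 10, 7 groups, 14 residual degrees of freedom, 17468 genes (1617 unannotated). The SE was taken as the size of the log2 fold change over the root of the F statistic. The step was tested on simulated data. The common biological coefficient of variation was 0.163. A count of 0 would allow 3 counts, or 0.0735 to 0.107 CPM, for counting error only. No 2 libraries were near-identical. Whether replicates were separate cultures is not stated, so p-values measure the spread between these samples. Within-dose relations used 100000 permutations (smallest p 1e-05). Promoters are from RefSeq and were searched for 8 members. MYC was left out of that search, and FOSL1, which had no entry, is only named.

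Members, lists and alternatives were chosen with earlier results of these data known. From each list up to 4 higher and 4 lower genes with a mean of at least 1 CPM were named by largest fold change at 1000 µM, and likeness used 3 genes. A gene among the AP-1 targets that this rule names is counted but not reported here. Alternatives were DESeq2 1.42.0, RLE or library totals, other filters, a mitochondrial covariate, the replicate block, a GC correction over 20 bins of genes (89.8% of those tested had a GC value), subsets of libraries and leaving out each library.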

Additional observations from a re-analysis of the deposited data

How the results depend on the processing

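The calls at 1000 µM against 0 µM (FOSL2, JUND and MYC) were 3 in every alternative run, including each fit without 1 library (3 to 3). In those runs 18.4% to 47.6% of genes passed. Of 2160 member values under alternatives, 2079 stayed on their side of the threshold, 55 passed anew, 26 no longer passed and 0 called values changed sign, while 95 uncalled values did. Beyond single libraries, the number of members called moved as follows, and the cause was not tested. At 1 µM DESeq2 called 1 member (8.08% of genes) where edgeR called 0. At 10 µM the mitochondrial covariate, the GC correction and the fit without the 2 libraries lowest in GC-rich genes each called 1 (JUND, with 19.7%, 28.5% and 27.6% of genes), and the 6 samples alone called 3 (32.7% of genes). At 100 µM library totals and the replicate block called 0 in place of 1 (3.89% and 2.55% of genes). There the fit without the 2 libraries lowest in GC-rich genes called 2 (11.9% of genes) and the 6 samples alone 4 (24.7%). For the mean of 0.01 to 10 µM against 0 µM, DESeq2, no filter and the mitochondrial covariate called 1 in place of 0, and the GC correction 2 (6.93% to 22.8% of genes). Against that mean, 100 µM gave 1 with DESeq2 (1.1% of genes) and without the 2 libraries lowest in GC-rich genes (0.682%) in place of 0, and 1000 µM gave 2 with DESeq2 (32.2%) and 3 with the GC correction (31.3%) in place of 1. Between 1000 and 100 µM, the mitochondrial covariate called 1, RLE, no filter, at least 10 counts in every sample and the fit without the 2 libraries lowest in GC-rich genes 2, and DESeq2 and the GC correction 3, in place of 0 (5.54% to 19.5% of genes). Among the 7 groups the mitochondrial covariate and the fit without the 2 libraries lowest in GC-rich genes called 2 (29.9% and 24.6% of genes), no filter 4 (13.3%), DESeq2 and the GC correction 5 (37.7% and 33.3%) and the fit without the 3 libraries at 1000 µM 0 (0.918%), in place of 1. The slope called 1 in place of 2 with no filter (MYC, with 12.4% of genes), in the 18 treated libraries alone (MYC, 11.5%) and without the 3 libraries at 1000 µM, where it was FOS that passed, as lower (-0.18, adjusted p = 0.0412 by edgeR, 6.07% of genes). It called 3, with JUND lower beside FOSL2 and MYC, with DESeq2 and with at least 10 counts in every sample (31.3% and 33.6%). With library totals, the mitochondrial covariate and without the 2 libraries lowest in GC-rich genes it called 2, with JUND lower in place of FOSL2. The share of genes in these fits was 27.2%, 29.5% and 27.2%.

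Without 1 library 0 members were called at 0.01 µM (0% to 6.05% of genes), 0.1 µM (0% to 4.85%) and 10 µM (7.07% to 20.8%). The count ran from 0 to 1 at 1 µM (0% to 7.09% of genes) and 100 µM (0.146% to 6.36%). It ran from 0 to 1 for the mean of 0.01 to 10 µM against 0 µM (0.0561% to 22.3% of genes). Against that mean it ran from 0 to 1 for 100 µM (0.0785% to 0.624%) and from 0 to 2 for 1000 µM (17.0% to 36.2%). Between 1000 and 100 µM it ran from 0 to 1 (7.31% to 16.8% of genes). Among the 7 groups it ran from 1 to 6 (17.2% to 35.0% of genes), with 6 without 0.01 µM replicate 1. For the slope it ran from 1 to 3 (19.5% to 35.8% of genes). Libraries of the same replicate number showed little likeness across doses. Over 63 pairs of same-numbered libraries r ran from -0.437 to 0.249 with a median of 0.0199, and 5 of 21 libraries were closest to their own number. The labels do not say what a shared number stands for. A pairing that leaves no such likeness cannot be seen in this way. With the replicate block the change of FOS at 100 µM was -0.91 (adjusted p = 0.0531 by edgeR). The SE of JUND at 1000 µM was 0.32 on the log2 scale with at least 956 reads in each library.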
